A study of Saccharomyces cerevisiae with 12 samples.

Results

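Histidine synthesis in budding yeast is carried out by the products of 7 genes, HIS1, HIS2, HIS3, HIS4, HIS5, HIS6 and HIS7, which were taken here as one set and looked up by systematic name among the 6228 genes of the array. Each had 1 probe, printed as 2 spots. HIS3 stayed at background on all 12 arrays, and the other 6 genes were tested. The arrays were 12 one-colour hybridisations of Saccharomyces cerevisiae BY4741, a laboratory strain that carries deletions of HIS3, LEU2, MET17 and URA3 in all groups. There were 4 groups of 3 arrays each. WT_CTR1 was wild type BY4741 over-expressing CTR1, the gene of the high-affinity copper transporter of the plasma membrane, and WT_Con was wild type with empty vector. Dctr1_CTR1D300 was the ctr1 deletion strain over-expressing the form named CTR1 delta-300 in the labels, and Dctr1_Con was the same deletion strain with empty vector. All cultures grew in medium lacking leucine with 0.02 mM CuCl2 for 7 h at 30 °C, so excess copper was common to the groups and no culture without added copper was compared. The sources used here do not give the promoter that drives the constructs, and the design contains no deletion strain with full-length CTR1 and no wild type with CTR1 delta-300. Replicates were independent experiments according to the series description.

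Histidine is built from phosphoribosyl pyrophosphate (PRPP) and ATP. Its first step is the committed one and is inhibited by histidine, and a by-product, AICAR, returns to purine synthesis. Transcription of these genes is known to respond to Gcn4, the activator of amino acid synthesis genes in starved yeast, whose own level is set mainly through translation. Several of them also respond to Bas1 with Pho2, the activators of purine synthesis genes. BY4741 lacks the dehydratase encoded by HIS3 and takes its histidine from the medium.

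The values given below are relative signals, the processed signal of a probe divided by the 75th percentile of all probes on its array, unless a value is called a log2 fold change. A gene is said to have risen or fallen where limma, fitted to all 6127 genes that passed the background filter, gave a Benjamini-Hochberg adjusted p under 0.05. No probe is set against another by level, because probes differ in how strongly they hybridise. A change in the total RNA of a cell is not seen in such values, since each array is scaled to itself. Between 95.9% and 98.6% of spots were well above background on each array, and no spot was saturated. The CTR1 probe read 7.12 ± 0.16 (SE) higher on the log2 scale in WT_CTR1 than in WT_Con, and it was not well above background in either deletion group. Between those groups the probe was called higher in Dctr1_CTR1D300 (log2 fold change 0.96 ± 0.16, limma adjusted p = 0.000452), at signals not well above background. It therefore gives no reading of CTR1 delta-300, since the position of the probe within that construct is not given. LEU2, the leucine synthesis gene missing from BY4741, was well above background in all groups and was lower in Dctr1_CTR1D300 than in Dctr1_Con (log2 fold change -6.38 ± 0.26) and in WT_CTR1 than in WT_Con (-1.51 ± 0.26, adjusted p = 0.00341), and its part in the results below was not tested. The deleted genes HIS3, MET17 and URA3 stayed at background throughout. Replicate 1 of each group shared 1 slide, replicates 2 and 3 of the wild type groups shared another, and those of the deletion groups the last. The over-expressing cultures always lay in one column of the slide and the empty-vector cultures in the other, so construct and slide column cannot be told apart.

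With the spots of a probe averaged, the mean signal of the 6 measured genes was lowest in WT_CTR1, next in Dctr1_Con, then WT_Con, and highest in Dctr1_CTR1D300. For HIS1 the lower places of this order are not settled, since with its lower-numbered spot alone WT_CTR1 lay above WT_Con (log2 fold change 0.57, adjusted p = 0.0254). Full-length CTR1 in wild type went with lower signal of 5 of the 6 genes, and CTR1 delta-300 in the deletion strain with higher signal of all 6. Dctr1_Con and WT_Con differed in none of the 6 by the test, and their neighbouring places in the order are within the error. WT_CTR1 and Dctr1_Con, the lowest pair, differed for HIS2, HIS4, HIS5, HIS6 and HIS7 (log2 difference, Dctr1_Con over WT_CTR1, of 0.20 to 0.67). They did not differ for HIS1, where the difference was 0.00 with an adjusted p of 0.986 (limma). This pair was taken from the order of the means, and the share of all genes that differed in it was not counted. Strain, construct and slide column differ together in this pair and cannot be told apart.

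**Figure D1:**
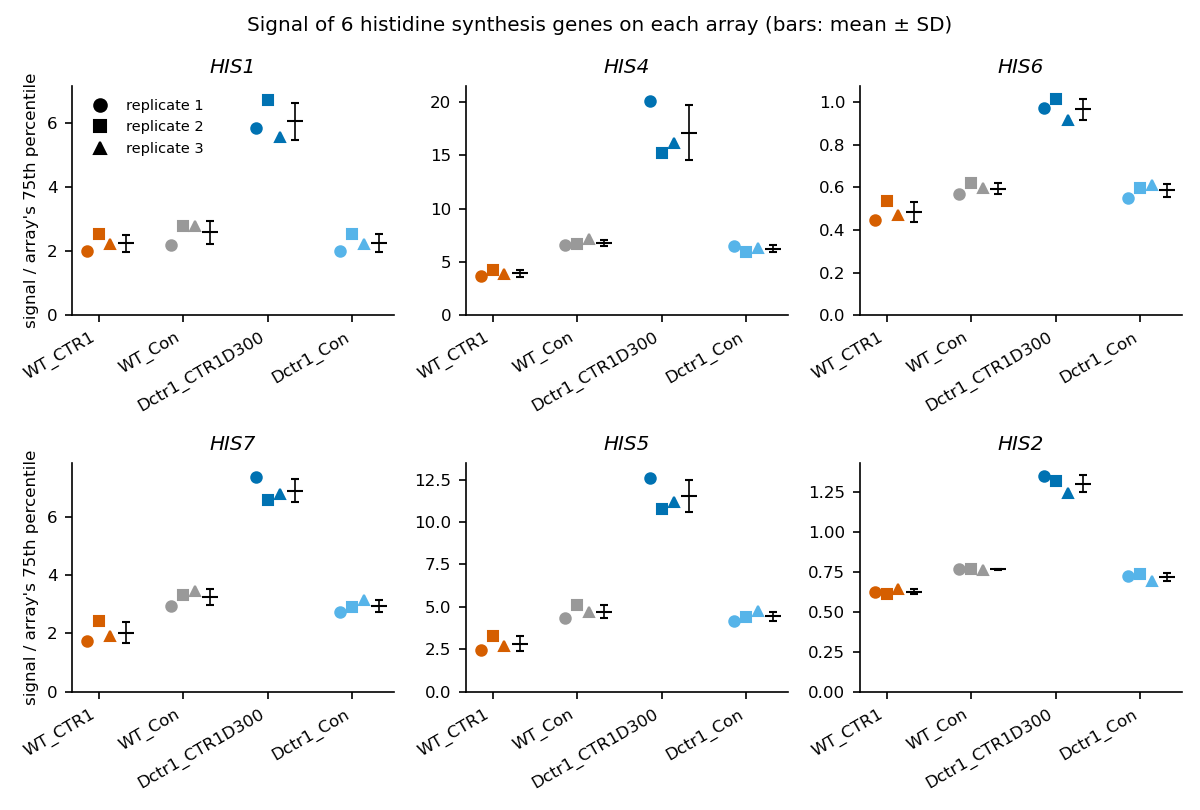
Relative signal (processed signal divided by the array's 75th percentile, linear axis from 0) of HIS1, HIS4, HIS6, HIS7, HIS5 and HIS2, in the order of the pathway, on each of the 12 arrays. Each point is 1 array with the replicate number as its shape, and the bar beside each group is its mean ± SD of 3 arrays. The Dctr1_CTR1D300 arrays lie above all others in each panel, and WT_CTR1 lies below WT_Con without overlap in each panel except that of HIS1.

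HIS1 (YER055C) encodes ATP phosphoribosyltransferase, the enzyme of the committed step. It read 1.99, 2.53 and 2.23 in the 3 WT_CTR1 cultures, against 2.18, 2.78 and 2.80 in WT_Con. In Dctr1_CTR1D300 it read 5.86, 6.71 and 5.58, against 2.0, 2.54 and 2.23 in Dctr1_Con. The wild type groups overlapped, while the Dctr1_CTR1D300 arrays stood clear of every other array.

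HIS4 (YCL030C) encodes an enzyme of 3 activities, which catalyses the steps after that of HIS1 and also the last one. It read 3.64, 4.26 and 3.90 in WT_CTR1, against 6.57, 6.72 and 7.10 in WT_Con. In Dctr1_CTR1D300 it read 20.1, 15.2 and 16.2, against 6.54, 5.88 and 6.30 in Dctr1_Con. Neither pair overlapped, and Dctr1_CTR1D300 replicate 1 stood highest, although the lowest Dctr1_CTR1D300 array was still above the highest array of the other groups.

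HIS6 (YIL020C) encodes the isomerase of the fourth step. It read 0.448, 0.537 and 0.469 in WT_CTR1, against 0.568, 0.619 and 0.595 in WT_Con. It read 0.971, 1.01 and 0.916 in Dctr1_CTR1D300, against 0.551, 0.598 and 0.609 in Dctr1_Con. WT_CTR1 replicate 2 came close to WT_Con replicate 1, so the gap between the wild type groups was narrow.

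HIS7 (YBR248C) encodes imidazole glycerol phosphate synthase, the step that releases AICAR. It read 1.74, 2.43 and 1.92 in WT_CTR1, against 2.95, 3.31 and 3.47 in WT_Con. It read 7.36, 6.57 and 6.79 in Dctr1_CTR1D300, against 2.73, 2.92 and 3.15 in Dctr1_Con. The groups of both pairs were separate, and the value of WT_CTR1 replicate 3 rests on 1 spot because the other was marked as an outlier by the scanner software.

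HIS3 (YOR202W) encodes the dehydratase of the sixth step. Its 2 spots gave processed signals of 2.29 to 8.43 over the 12 arrays, where the array medians were between 1792 and 2999. The gene was at background in all groups and has no comparison.

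HIS5 (YIL116W) encodes histidinol phosphate aminotransferase, the seventh step. It read 2.47, 3.30 and 2.69 in WT_CTR1, against 4.33, 5.11 and 4.72 in WT_Con. It read 12.6, 10.8 and 11.2 in Dctr1_CTR1D300, against 4.19, 4.42 and 4.74 in Dctr1_Con. WT_CTR1 was the low group and Dctr1_CTR1D300 the high one, with the empty-vector groups overlapping between them.

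HIS2 (YFR025C) encodes histidinol phosphate phosphatase, the eighth step. It read 0.624, 0.612 and 0.643 in WT_CTR1, against 0.766, 0.768 and 0.761 in WT_Con. It read 1.35, 1.32 and 1.24 in Dctr1_CTR1D300, against 0.722, 0.740 and 0.690 in Dctr1_Con. No 2 of its groups overlapped, with SDs of 0.0154 in WT_CTR1, 0.00337 in WT_Con, 0.0539 in Dctr1_CTR1D300 and 0.0248 in Dctr1_Con. Dctr1_Con and WT_Con were among these separate groups, although their difference was not called (limma adjusted p = 0.736). The share of all genes with 4 separate groups was not counted.

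WT_CTR1 was first set against WT_Con, which asks how extra full-length transporter altered the wild type. Of the 6 genes, 5 fell and none rose, where 6.02% of all genes fell, 7.25% rose and 13.3% changed in either direction. HIS4 fell to 57.7% of its WT_Con signal (log2 fold change -0.79 ± 0.10 SE, n = 3 arrays each, limma adjusted p = 0.000744). HIS5 fell to 59.4% of WT_Con (-0.75 ± 0.11, adjusted p = 0.00148) and HIS7 to 62.0% (-0.69 ± 0.12, adjusted p = 0.00345). The log2 fold change of HIS4 was -0.52 with the lower-numbered spot alone and -1.04 with the higher-numbered one, and that of HIS5 -0.56 and -0.92. HIS6 fell to 81.4% of WT_Con (-0.30 ± 0.08, adjusted p = 0.0310) and HIS2 to 81.8% (-0.29 ± 0.06, adjusted p = 0.00658). HIS1 had a log2 fold change of -0.20 ± 0.13 with an adjusted p of 0.365 (95% interval -0.49 to 0.09). The WT_CTR1 arrays lay wholly below WT_Con in the 5 genes that fell, where 13.7% of all genes did so. The median log2 fold change of the 6 was -0.49, beside 0.02 over all genes. It was -0.55 within slide 1, with 1 array each, and -0.47 within slide 2, with 2 arrays each, and the values of the 5 genes that fell were below 0 on both slides. HIS1 was below 0 on both slides with its spots averaged, but its sign over all arrays turned with the lower-numbered spot alone (0.57).

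The calls of HIS4, HIS5 and HIS7 held in every alternative processing in which they were tested, and those of the weaker pair did not. HIS6 missed the threshold when any of WT_CTR1 replicates 1 or 3 or WT_Con replicates 1, 2 or 3 was left out, with adjusted p between 0.0503 and 0.117. Without slide 1 it had an adjusted p of 0.150 and HIS2 one of 0.0832, so that 3 of the 6 genes were called. With replicate number as a block the calls of the 6 genes were the same, while 1677 genes were called in all in place of 813.

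Dctr1_CTR1D300 was set against Dctr1_Con, its empty-vector control in the same strain. All 6 genes rose, where 24% of all genes rose, 30.6% fell and 54.5% changed in either direction. HIS4 rose 2.73-fold over Dctr1_Con (log2 fold change 1.45 ± 0.10 SE, n = 3 arrays each, limma adjusted p = 1.23e-06). HIS1 rose 2.69-fold (1.43 ± 0.13, adjusted p = 7.99e-06), HIS5 2.59-fold (1.37 ± 0.11, adjusted p = 3.23e-06) and HIS7 2.35-fold (1.24 ± 0.12, adjusted p = 9.89e-06). HIS2 rose 1.82-fold (0.86 ± 0.06, adjusted p = 6.68e-07) and HIS6 1.65-fold (0.72 ± 0.08, adjusted p = 2.85e-05). HIS4, HIS1, HIS5 and HIS7 stood at places 83, 87, 96 and 126 of 6127 genes ranked from the highest log2 fold change, and HIS2 and HIS6 at 297 and 425. All Dctr1_CTR1D300 arrays lay above all Dctr1_Con arrays in each gene, where 28% of all genes did so. The median of the 6 was 1.30, beside -0.05 over all genes, with 1.49 within slide 1 and 1.2 within slide 3. With the spots averaged, HIS2 and HIS6 had the smaller changes here and also among the genes that fell in wild type.

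**Figure D2:**
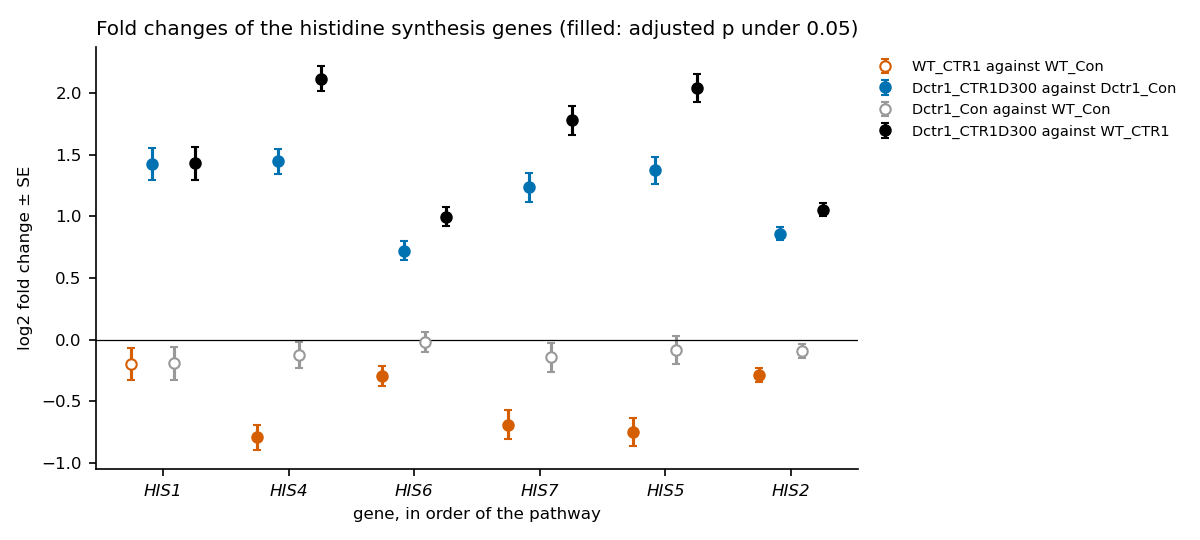
Log2 fold change ± SE of the 6 measured genes in 4 comparisons, with genes in the order of the pathway along the horizontal axis. Filled points passed an adjusted p of 0.05 and open points did not. Dctr1_CTR1D300 is above 0 against Dctr1_Con (0.72 to 1.45) and against WT_CTR1 (1.00 to 2.12) in all 6 genes, WT_CTR1 against WT_Con is below 0 (-0.79 to -0.20, HIS1 open), and Dctr1_Con against WT_Con is open throughout (-0.19 to -0.02).

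The effects of the 2 constructs, each against the empty vector in its own strain, were also set against each other in one test. This difference was called for all 6 genes, where it was called higher for 19.7% of all genes and in either direction for 46.4%. It was 2.24 ± 0.14 for HIS4 (SE, log2, adjusted p = 9.45e-07), 2.12 ± 0.16 for HIS5 (adjusted p = 2.48e-06) and 1.02 ± 0.11 for HIS6 (adjusted p = 4.23e-05). HIS7 gave 1.92 ± 0.17, HIS1 1.62 ± 0.19 and HIS2 1.15 ± 0.08. Strain and construct changed together in this test and cannot be told apart.

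Deletion of CTR1 by itself was read from Dctr1_Con against WT_Con. None of the 6 genes was called by limma, and none had an unadjusted p under 0.05, where 0.49% of all genes were called (30 genes, and 99 with replicate number as a block) and 8.57% had an unadjusted p under 0.05. Log2 fold changes ran between -0.19 ± 0.13 for HIS1 and -0.02 ± 0.08 for HIS6, with adjusted p between 0.736 and 0.988. The 95% intervals were -0.48 to 0.10 for HIS1, -0.35 to 0.10 for HIS4 and -0.22 to 0.03 for HIS2. Changes within those bounds are not excluded by these arrays. HIS2 and HIS4 read lower on each Dctr1_Con array than on each WT_Con array, where 11.3% of all genes did so. Replicates 2 and 3 of these groups lay on different slides, so strain and slide cannot be told apart for them. On slide 1, where both strains lay side by side, the median of the 6 was -0.07, with -0.09 for HIS2 and -0.01 for HIS4 (1 array each).

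Between the over-expressing groups, all 6 genes were higher in Dctr1_CTR1D300 than in WT_CTR1, where 24.5% of all genes were higher and 62.9% differed. HIS4 was 4.34-fold higher (log2 fold change 2.12 ± 0.10 SE, adjusted p = 3.95e-08), HIS5 4.12-fold, HIS7 3.43-fold, HIS1 2.69-fold, HIS2 2.08-fold and HIS6 2.0-fold. The groups did not overlap in any of the 6, and 25.5% of all genes lay higher without overlap. Strain and construct changed together here, and replicates 2 and 3 of the groups lay on different slides. Within slide 1, with 1 array each, the median log2 fold change of the 6 was 1.82. The median over all genes was itself shifted by -0.11 in this comparison and by -0.03 with arrays centred on their medians, and the median of the 6 was 1.60 and 1.68 under these scalings.

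HIS1 was the member whose 2 spots disagreed most. The spots carry the same probe at different places on the array. In the empty-vector groups the higher-numbered spot was the brighter by 1.17 on the log2 scale on average, and in the over-expressing groups it was the dimmer (mean -0.30), a change of -1.47 between slide columns. Over all 6155 probes the median size of this change was 0.16, and 12.5% of probes changed by more than 0.5.

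The lower-numbered HIS1 spot read 2.26, 2.74 and 2.41 in WT_CTR1, against 1.26, 1.86 and 1.91 in WT_Con. The higher-numbered spot read 1.76, 2.33 and 2.06 in WT_CTR1, against 3.76, 4.18 and 4.11 in WT_Con. Each spot separated the wild type groups without overlap, in opposite directions. Fitted with one spot of each probe, HIS1 was higher in WT_CTR1 by 0.57 (log2, adjusted p = 0.0254) with the lower-numbered spot and had a log2 fold change of -0.95 (adjusted p = 0.000516) with the higher-numbered one. The direction of HIS1 in wild type is therefore not settled by these arrays. Against Dctr1_Con, Dctr1_CTR1D300 was higher by 2.10 and by 0.75 with the same spots, and it was called with either. Comparisons within a slide column were steadier, with Dctr1_CTR1D300 over WT_CTR1 at 1.47 and 1.38 and Dctr1_Con over WT_Con at -0.06 and -0.31.

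The spot difference changed between columns by -0.55 for HIS4 and -0.34 for HIS5, and by 0.12, 0.10 and -0.10 for HIS2, HIS6 and HIS7. As with HIS1, the higher-numbered HIS4 spot was the brighter in the empty-vector groups (mean 0.35) and the dimmer in the over-expressing groups (mean -0.20). HIS4 and HIS5 kept their direction and their call with either spot in both construct comparisons. HIS6 fell in WT_CTR1 with the lower-numbered spot and missed the threshold with the higher-numbered one (-0.22, adjusted p = 0.111).

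**Figure D3:**
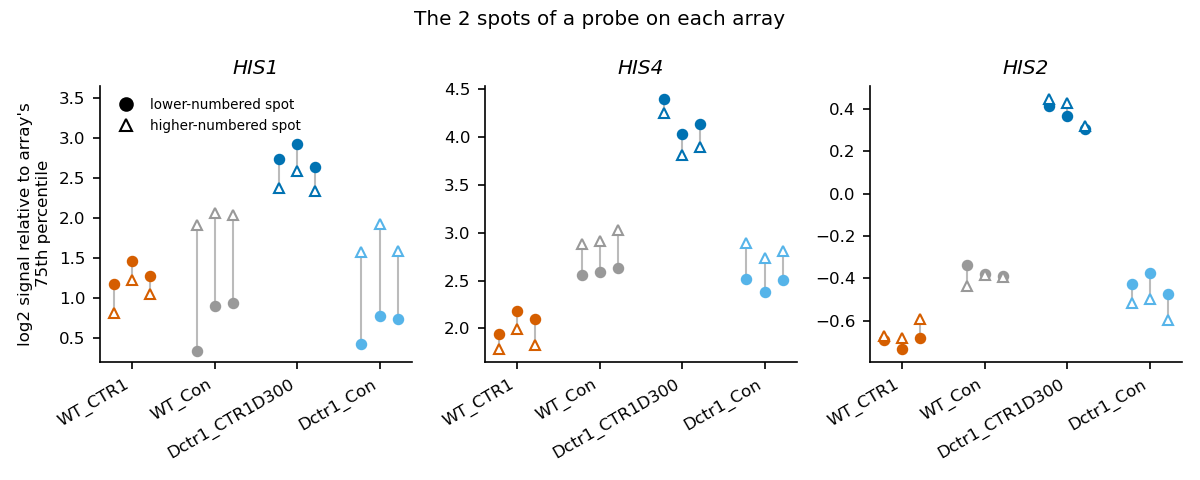
Log2 signal of the 2 spots of HIS1, HIS4 and HIS2 relative to the array's 75th percentile, on each of the 12 arrays, with the spots of an array joined by a line. Filled circles are lower-numbered spots and open triangles higher-numbered ones. For HIS1 the triangles lie above the circles in WT_Con and Dctr1_Con (mean 1.17) and below them in WT_CTR1 and Dctr1_CTR1D300 (mean -0.30). The HIS4 spots change order in the same way with smaller gaps (means 0.35 and -0.20), and for HIS2 the spots nearly coincide.

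The 6 genes moved alike over the 12 arrays, which share 4 groups, so that most of the likeness is that of the group levels. Pearson's r of each gene with the mean of the other 5 was 0.992 for HIS6, 0.992 for HIS5, 0.991 for HIS7, 0.983 for HIS4, 0.981 for HIS2 and 0.937 for HIS1. HIS1 was the least like the rest, with 267 genes outside the set having a higher r. That number was 69 for HIS2, 58 for HIS4, 24 for HIS7, 20 for HIS5 and 20 for HIS6. After the group means were subtracted, HIS5 and HIS7 still moved together from array to array (r = 0.942 over 12 arrays), and so did HIS1 and HIS6 (r = 0.835). HIS2 did not, with r between -0.25 and 0.15 with the other members. HIS4 did so in part, with r of 0.66 with HIS5 and 0.62 with HIS7, but 0.22 with HIS6 and 0.02 with HIS1. These r values are descriptions, and arrays share slides and scaling.

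The genes outside the set whose profile was most like the mean of the 6 were YHI9, SDT1, SRL4, NRK1, PCL5, ARO2, UGA3, SAM4, YBR012C and TRP3, with r of 0.997 for YHI9 and 0.994 for TRP3 over the 12 arrays. ARO2 encodes chorismate synthase and TRP3 an enzyme of tryptophan synthesis, SAM4 a homocysteine methyltransferase and PCL5 a cyclin. They were chosen for this likeness, and their changes are given as a description. Log2 fold changes lay between -1.15 (SRL4) and -0.52 (UGA3) in WT_CTR1 over WT_Con, and between 1.17 (TRP3) and 2.62 (SRL4) in Dctr1_CTR1D300 over Dctr1_Con.

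Supply of the first substrate was read from the 5 PRS genes, which encode PRPP synthetase. PRS4 and PRS3 fell in WT_CTR1, with log2 fold changes of -0.52 ± 0.10 (adjusted p = 0.00759) and -0.36 ± 0.10 (adjusted p = 0.0320), and PRS1, PRS2 and PRS5 were not called, where 6.02% of all genes fell. In Dctr1_CTR1D300, 4 of the 5 rose over Dctr1_Con, PRS1 by 0.48, PRS5 by 0.48, PRS3 by 0.47 and PRS4 by 0.39 on the log2 scale, where 24% of all genes rose, while PRS2 had a log2 fold change of 0.00. The PRS3 and PRS4 calls in wild type missed the threshold with normexp background correction and without slide 1, and that of PRS3 also when single arrays were left out. Over the alternatives the rise of PRS5 in Dctr1_CTR1D300 ran from 0.26 to 0.64 and that of PRS4 from 0.31 to 0.64. PRS4 had an adjusted p of 0.0542 without slide 1.

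Use and uptake of histidine did not move as one. HTS1, the histidyl-tRNA synthetase, read 10.5, 11.1 and 10.3 in Dctr1_CTR1D300, against 5.75, 6.35 and 6.44 in Dctr1_Con, and rose by 0.78 ± 0.09 (log2, adjusted p = 3.00e-05). HIP1, the high-affinity histidine permease, read 1.77, 2.04 and 1.91 in Dctr1_CTR1D300, against 1.14, 1.29 and 1.19 in Dctr1_Con, and rose by 0.66 ± 0.11 (adjusted p = 0.000578). GAP1, the general amino acid permease, went the other way, with 0.470, 0.520 and 0.481 in Dctr1_CTR1D300, against 1.2, 1.34 and 1.2 in Dctr1_Con (log2 fold change -1.34 ± 0.14, adjusted p = 1.75e-05). Among the vacuolar basic amino acid transporters, VBA2 rose by 0.54 and VBA1 had a log2 fold change of -0.29 (called lower), and VBA3 was not called (-0.28, adjusted p = 0.167). VBA1 missed the threshold with the higher-numbered spot alone.

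In WT_CTR1, VBA2 was the member of that list that was called, with a log2 fold change of -0.29 and an adjusted p of 0.0469. It missed the threshold in 12 of 26 alternatives, among them the lower-numbered spot alone (-0.11, adjusted p = 0.399). HTS1 had a log2 fold change of -0.24 there with an adjusted p of 0.0956, and HIP1 one of -0.13 with an adjusted p of 0.497.

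AICAR from the HIS7 step is used by the products of ADE16 and ADE17. ADE17 fell in WT_CTR1 (log2 fold change -0.66 ± 0.14, adjusted p = 0.0122) and ADE16 was not called (0.22, adjusted p = 0.183). ADE17 missed the threshold in 6 of 26 alternatives, with adjusted p up to 0.111 (without slide 1). In Dctr1_CTR1D300 over Dctr1_Con neither was called, with -0.37 for ADE17 (adjusted p = 0.0509) and -0.04 for ADE16.

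Of the regulators, BAS1 read 1.11, 1.06 and 0.984 in Dctr1_CTR1D300, against 0.377, 0.482 and 0.430 in Dctr1_Con. It rose by 1.29 ± 0.23 (log2, adjusted p = 0.000763), with no overlap of the groups. In WT_CTR1 it read 0.272, 0.466 and 0.230, against 0.349, 0.506 and 0.370 in WT_Con, and was not called (-0.39, adjusted p = 0.310). PHO2, the partner of Bas1, had a log2 fold change of -0.33 in Dctr1_CTR1D300 and was called lower (adjusted p = 0.0115), but not without slide 1 (adjusted p = 0.0886).

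GCN4 transcript was called in neither construct comparison. It read 7.92, 7.76 and 3.84 in Dctr1_CTR1D300, against 6.29, 6.25 and 4.65 in Dctr1_Con, with replicate 3 low in both groups (log2 fold change 0.12, adjusted p = 0.683). It read 4.44, 4.91 and 3.99 in WT_CTR1, against 6.01, 6.0 and 5.99 in WT_Con, with the groups separate but an adjusted p of 0.268 (log2 fold change -0.44). GCN2, the kinase that acts upstream of Gcn4 translation, was called in neither. Transcript levels of these genes carry no reading of their proteins. None of the PRS, transport, ADE16, ADE17 and regulator genes was called in Dctr1_Con against WT_Con, where 0.49% of all genes were called.

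The histidine genes were set beside other pathways that respond to amino acid or purine supply. In WT_CTR1, 6 of 10 arginine synthesis genes fell, 8 of 11 purine synthesis genes and 2 of 9 lysine synthesis genes, beside 5 of 6 histidine genes, and none of any list rose, where 6.02% of all genes fell and 7.25% rose. Without slide 1, 2 of the 8 purine calls, 5 of the 6 arginine calls and 1 of the 2 lysine calls were left, beside 3 of the 5 histidine calls. ARG4 turned to 0.0386 with the higher-numbered spot alone. The medians were -0.49 for arginine, -0.55 for purine, -0.39 for lysine and -0.49 for histidine.

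In Dctr1_CTR1D300 over Dctr1_Con these lists were further apart. The shares over all genes were 24% that rose and 30.6% that fell. All 10 arginine genes rose, with a median of 1.46, from ARG8 at 0.72 (adjusted p = 0.0428) to the mitochondrial ornithine transporter ORT1 at 1.85. ARG8 was not called in 9 of 26 alternatives (0.50, adjusted p = 0.144, with the higher-numbered spot alone), and the other 9 genes were called in all of them. Of the lysine genes 1 rose and 4 fell, with a median of -0.17, LYS5 at 0.95 and LYS9, the saccharopine reductase, at -2.43. The falls of LYS1, LYS4 and LYS12 each missed the threshold in some alternative, so that 1 of the 4, LYS9, held in every one. Of the purine genes 5 rose and 3 fell, with a median of 0.04, ADE8 at 1.35 and ADE2 at -0.65. ADE4 among those that rose, and ADE1 and ADE13 among those that fell, missed the threshold in some alternative. These are counts beside the 6 of 6 of the histidine list, and the difference between lists was not tested. All the lists share the same 12 arrays.

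**Figure D4:**
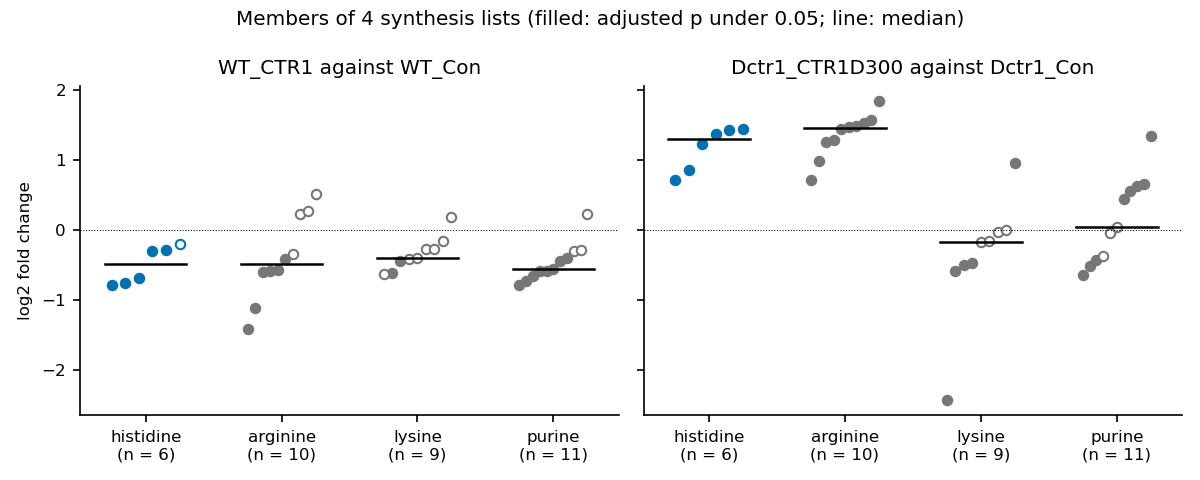
Log2 fold change of each measured gene of the histidine, arginine, lysine and purine synthesis lists, for WT_CTR1 against WT_Con on the left and Dctr1_CTR1D300 against Dctr1_Con on the right. Each point is 1 gene, filled where its adjusted p was under 0.05, and the line is the median of the list. The medians lie between -0.55 and -0.39 on the left, and on the right the histidine (1.30) and arginine (1.46) medians lie above those of purine (0.04) and lysine (-0.17).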

How the data were processed

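Total RNA (0.4 µg per culture) was labelled with Cy3 and hybridised to Agilent arrays of design 016322, and the deposited files hold the scanner output of each array. Per the file headers and the submitters' processing notes, the intensity values came from Agilent Feature Extraction 10.7.1.1, which corrected background and trend and set the other columns, flags for outlier, saturated and well-above-background spots. The authors also deposited log2 values in a table of 5202 probes. Its shared median was 11.7 and each column followed its own array (r at least 0.99969). The sources used here do not give its normalization. It served as an alternative.

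From the deposited processed intensity, log2 was taken, the 2 spots of a probe were averaged (scanner outliers left out), and each array's 75th percentile over probes was subtracted. The filter kept 6155 probes that had a well-above-background spot on 3 or more arrays (101 were removed), and the brightest probe stood for a gene, which left 6127 genes. limma 3.58.1 in R 4.3.3 fitted all 12 arrays by group with 8 residual degrees of freedom, adjusted over all genes, and was tested on simulated data. The simulated noise was independent between arrays, without the deviations that same-numbered arrays shared in the data. Intensities give no read depth, so the number of arrays limits precision. Names came from the files and the RefSeq R64 table, which named 5740 of the 6228 genes. The build of the array design differs from it, so no coordinates are given.

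The histidine genes and all other lists were chosen with earlier results of these data known. The named genes are all members of the set, all genes of PRPP supply, histidine use and transport, AICAR use and regulation, the extremes of the arginine, lysine and purine lists (not all of which are reported here), the genes deleted in the strains, and the 10 genes most like the mean profile.

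The series description gives 3 independent experiments. Same-numbered arrays deviated together, with r of 0.750, 0.692 and 0.342 between WT_CTR1 and WT_Con, 0.679, 0.699 and 0.394 between Dctr1_CTR1D300 and Dctr1_Con, and 0.554, 0.295 and 0.134 between Dctr1_Con and WT_Con. Replicate 1 is also a slide of its own, and that slide was scanned on another day than the other slides. Replicate, slide and scan day cannot be told apart there. Between Dctr1_CTR1D300 and WT_CTR1 the r values were 0.381, 0.407 and -0.03. Alternatives were other scalings, normexp background, filters, each spot alone, the deposited log2 table, replicate or slide blocks, fewer groups, and each array or slide 1 left out. The files hold no mean spot signal, so normexp used the median spot signal. A planned search of promoters for Gcn4 and Bas1 motifs was not run, since promoter sequence was not used here.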

Additional observations from a re-analysis of the deposited data

Results flagged for a closer look

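For all 6 measured histidine genes the effect of CTR1 delta-300 in the deletion strain differed from that of full-length CTR1 in wild type by the test of the difference itself (limma interaction, log2). The difference was 1.62 for HIS1, 2.24 for HIS4, 1.02 for HIS6, 1.92 for HIS7, 2.12 for HIS5 and 1.15 for HIS2, with a call in each alternative processing that could be fitted. Over all genes this difference was called higher for 19.7% and in either direction for 46.4%. Strain and construct changed together in it and cannot be told apart. No group of 3 arrays is large enough for a check of single outlying samples. The HIS1 effect in wild type had opposite signs in its 2 spots, at 0.57 and -0.95, while the difference between the construct effects was 1.53 and 1.69 with these spots.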

How the results depend on the processing

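The histidine genes called in Dctr1_CTR1D300 against Dctr1_Con, in Dctr1_CTR1D300 against WT_CTR1 and in the difference between the construct effects kept their call and direction in all 26, 26 and 25 alternatives (the difference has no fit on fewer groups, and HIS7 could not be tested with the higher-numbered spot). Leaving out single arrays gave 6 to 6 calls in these. In WT_CTR1 against WT_Con, leaving out single arrays gave 4 to 5 calls. There were 3 without slide 1, and 3 with the same direction in each spot alone, a setting chosen after seeing the data in which HIS7 could not be tested. HIS1 there was 0.57 with the lower-numbered spot, and ARG4 0.0386 with the higher-numbered one. HIS6 was not called with only the groups of the comparison (adjusted p = 0.0869). The cause of these changes was not tested.

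In Dctr1_Con against WT_Con no histidine gene was called in any alternative, and 0 to 0 were called when single arrays were left out. Signs turned for HIS4, HIS5, HIS6 and HIS7, while HIS1 and HIS2 stayed below 0 in every alternative. The median of the 6 was 0.02 with slide as a fixed block, in place of -0.11. With slide as a fixed block the log2 fold changes were 0.11 for HIS4, 0.0915 for HIS5, 0.0263 for HIS6 and 0.0217 for HIS7. HIS6 was 1.94e-05 with slide as a random block, 0.000477 with the higher-numbered spot and 0.0103 without WT_Con replicate 2, and ran from -0.0514 to 0.0245 (without Dctr1_Con replicate 1) as single arrays were left out.

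The replicate block changed no call of a histidine gene in the 5 comparisons. Over all genes it gave 1677 calls in place of 813 in WT_CTR1 against WT_Con and 99 in place of 30 in Dctr1_Con against WT_Con. In WT_CTR1 against WT_Con the lower-numbered spot gave 1361 calls, slide as a fixed block 1307, slide as a random block 1338, both spots 381 and slide 1 left out 349, and leaving out single arrays gave 482 to 1134 (482 without WT_CTR1 replicate 3, 518 without WT_CTR1 replicate 1, 537 without WT_Con replicate 2, 539 without WT_Con replicate 3). In Dctr1_Con against WT_Con, 18 genes were called without WT_Con replicate 1 or 3 or Dctr1_Con replicate 3.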
